A study of Mus musculus with 9 samples.

Results

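Tristetraprolin (TTP), the product of Zfp36, is a zinc finger protein that binds AU-rich elements in the 3′UTRs of mRNAs and recruits deadenylases and other factors, so that the bound mRNA is degraded or less well translated. In macrophages it limits the output of cytokine mRNAs after contact with bacterial lipopolysaccharide (LPS). LPS also makes macrophages secrete type I interferon, which acts through JAK kinases and the transcription factors they activate on a large set of antiviral genes, and many of these genes are also kept at a tonic level without infection.

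RiboSeq counts ribosome-protected fragments, or footprints, per gene and so measures translation, which depends on the amount of an mRNA as well as on how well it is used. Here the 3 libraries of macrophages that expressed wild-type GFP–TTP were compared with the 3 libraries of macrophages that expressed GFP only, 6 of the 9 libraries of the series. The other 3 came from cells with GFP–TTP-AA, a TTP whose serines for the kinase MK2 are replaced by alanines. All cells were TTP-deficient mouse bone marrow-derived macrophages immortalized with human c-myc and hRasG12V, transduced with a retroviral vector for tetracycline-inducible expression, sorted for GFP, and given doxycycline at 1 μg/ml over 6 h and LPS at 1 μg/ml over 1 h. The conditions are cell lines that were transduced separately, each with 3 samples labelled biological replicates, so that a difference between the lines from before induction cannot be told apart from an effect of the transgene. Of 16921 genes in the table, 9938 had a standard error and a fitted mean of at least 10 scaled reads, and were tested.

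The deposited values were not observed counts but estimates from the authors' DESeq2 fit. After terms for condition and replicate number, the log2 values of a gene left at most 1.78e-14. The ratio of GFP–TTP to GFP-only was therefore the same in replicates 1, 2 and 3, and the spread between replicates enters only through the standard error of the log2 fold change. Whether the fitted values of the 2 groups overlap in a gene is thus no evidence on that spread. Levels are given in scaled reads, that is, fitted footprints divided by the size factor of the library, and a condition's level is the geometric mean of its 3 libraries. The libraries of the 2 conditions held 3507320 to 11701420 fitted footprints. Levels are not divided by gene length and are compared within a gene only. The model shrinks fold changes towards 0, the more so the less certain the estimate of a gene is, and this does not follow read number alone. Tnf, with a mean of 9359 scaled reads, had a standard error of 0.249, close to the largest of 0.250. A gene was called where its adjusted p was under 0.05, by a Wald test on the fold change and its standard error.

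The cells carried the footprints of macrophages. Of the 10 defining markers 9 were tested, with levels in GFP-only cells of up to 64474 (Lyz2), 9604 (Cd14) and 6934 (Csf1r), and Mertk had a mean of 4.94. Of 30 markers of other cell types 15 were in the table, and 1 of these, the neutrophil gene S100a8, had a mean of at least 10. The markers of other cell types summed to between 41.7 and 59.8 scaled reads in the GFP-only libraries and to between 41.6 and 58.8 in the GFP–TTP libraries.

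Zfp36 itself lies on GRCm38 at chr7:28376784-28380253 on the minus strand. Its footprints stood at 442, 440 and 507 in the GFP-only libraries and at 892, 888 and 1024 in the GFP–TTP libraries. The gene was 2.02-fold higher (log2 fold change 1.01 ± 0.25, SE, adjusted p = 0.00493). GFP-only cells, which lack TTP, thus still had footprints assigned to Zfp36, and gene totals do not show where in the gene they lay. In GFP–TTP-AA cells the level was 1515.

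Of the 9938 genes, 208 (2.09%) were called, 80 higher (0.805%) and 128 lower (1.29%) in GFP–TTP than in GFP-only macrophages. These shares are the background for the counts of each list below. The median log2 fold change over all tested genes was 0.00, and 49.7% were below 0. Among called genes, the median was 0.70 for those that were higher and −0.88 for those that were lower, and 16 rose and 40 fell by at least 1 on the log2 scale. The calls depend on the reference distribution. With a t distribution with 4 degrees of freedom in place of the normal distribution 0 genes were called, with 364 at an unadjusted p under 0.05 against 1123 with the normal distribution. The smallest adjusted p under the t distribution was 0.231. Over 9938 genes not even Nedd4, with a log2 fold change of 3.81 ± 0.17, was called, so that this setting does not tell strong from weak calls. A lower footprint value of a gene can come from fewer cells that make the protein or from less of it per cell, and the values of a whole culture do not separate these.

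**Figure D1:**
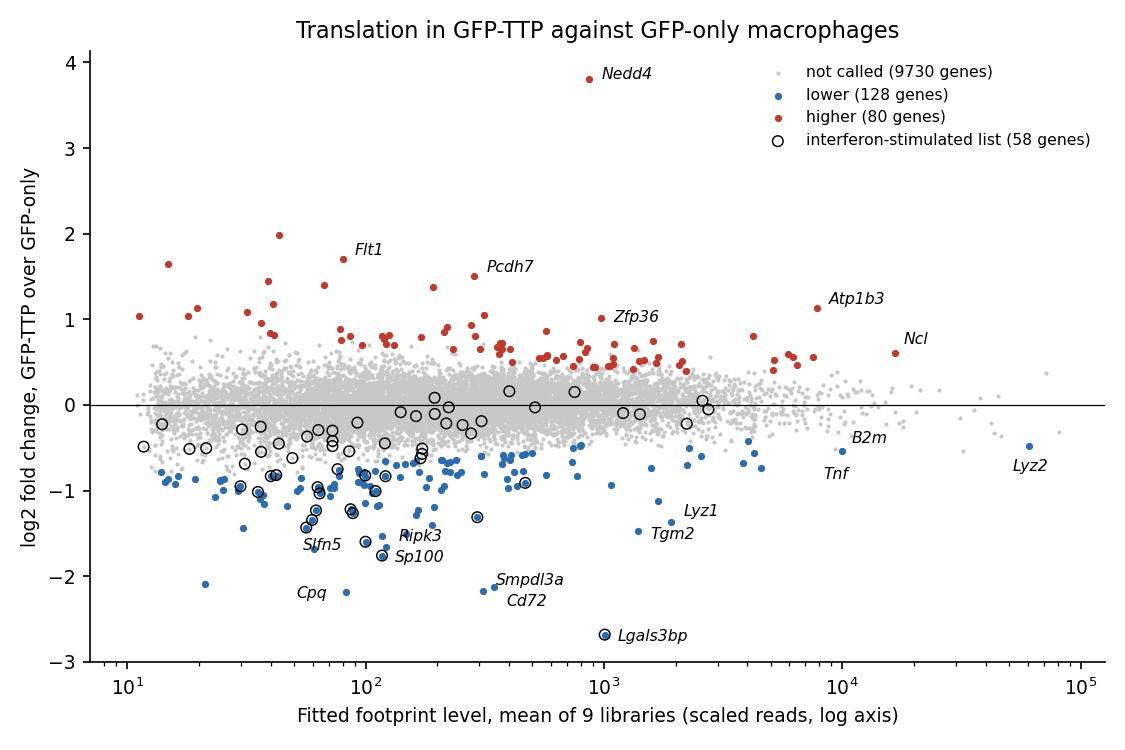
Log2 fold change of GFP–TTP over GFP-only (vertical axis) against the fitted footprint level as a mean over all 9 libraries in scaled reads (horizontal log axis) for 9938 genes. Blue points are the 128 genes called lower, red points the 80 called higher, and rings the 58 tested interferon-stimulated genes, nearly all of which lie below 0, while Nedd4 stands alone at 3.81.

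The largest group among the lowered genes was that of interferon-stimulated genes. Of 76 listed genes 71 were in the table and 58 were tested, of which 18 fell, 0 rose and 40 were not called. The share called was 31.0%, against 2.09% over all genes. Their median log2 fold change was −0.50 against 0.00 over all genes, and 54 of the 58 were below 0. The called genes lay on 10 chromosomes, and the median was −0.49 after the median of each gene's chromosome was taken off. The 13 genes in the table that were not tested had too low a mean or no standard error. Lgals3bp, Sp100 and Lgals9 were known from earlier results of these data to be lowered, and without them the median was −0.48, with 15 calls among 55 genes.

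Interferon-stimulated genes are commonly switched on through a promoter element in which GAAA repeats at a spacing of 2 bases. After the interferon genes had been seen among the calls, the letters GAAANNGAAA were searched on both strands of the RefSeq promoters, from 250 bases before to 50 bases after each start on GRCm38.p6. They were found at 3.99% of 27025 genes and at 12 of 92 called lower genes with a promoter entry. Of the others, 1 of 63 called higher genes (1.59%) and 285 of 7772 genes that were not called (3.67%) had them. In the interferon list they were found at 25 of 48 tested genes and at 6 of 14 called ones. Among genes that had the motif but were not on the interferon list, 6 of 273 (2.20%) were called lower. Of the genes with a promoter entry but no motif 80 of 7629 (1.05%) were, and 1.29% over all tested genes. The 6 were H2-T23 and B2m, both of the MHC class I list, and Ctss, Sepp1, Aim1 and AF251705. Shown next are lowered genes of the interferon and MHC class I lists that were chosen for having a match. The results on these lists do not rest on them. Each is given in 30 bases around a match before its RefSeq start. By the gene bounds of GENCODE, the sites of Slfn5 and H2-T23 lie within the gene. The motif is in capitals, and appears as its reverse complement TTTCNNTTTC where it lies on the other strand. The genes are Oas3 (chr5:120777715-120777744, minus strand), Slfn5 (chr11:82951937-82951966, plus strand), Gbp3 (chr3:142559989-142560018, plus strand), Lgals9 (chr11:78984960-78984989, minus strand), H2-T23 (chr17:36032806-36032835, minus strand) and B2m (chr2:122147538-122147567, plus strand).
Oas3: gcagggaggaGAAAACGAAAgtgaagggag
Slfn5: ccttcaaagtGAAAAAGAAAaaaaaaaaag
Gbp3: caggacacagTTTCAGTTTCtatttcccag
Lgals9: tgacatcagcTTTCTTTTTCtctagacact
H2-T23: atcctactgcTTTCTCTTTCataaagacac
B2m: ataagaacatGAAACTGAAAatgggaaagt
The bases of Gbp3 also hold a second match that overlaps the first and is in part in lower case. A match is a match of letters only and says nothing of whether a factor was bound there.

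Lgals3bp, a secreted glycoprotein that binds galectins and is induced by interferon, changed most of all lowered genes. It stood at 1051, 1202 and 1119 in the GFP-only libraries and at 164, 187 and 174 in the GFP–TTP libraries. The level was 6.42-fold lower (log2 fold change −2.68 ± 0.15, adjusted p = 2.01e-68). The RNA sensors of the RIG-I family followed a like course. Ddx58, which encodes RIG-I, had 86.5, 83.4 and 159 scaled reads in GFP-only cells and 36.1, 34.7 and 66.1 in GFP–TTP cells. It was 2.40-fold lower (adjusted p = 4.71e-06). Ifih1, which encodes MDA5, had 45.0, 37.5 and 72.0 against 17.7, 14.8 and 28.4, and was 2.54-fold lower (adjusted p = 1.55e-05). Dhx58, the gene of the third sensor, had a log2 fold change of −0.82 ± 0.25 and lay at the threshold without passing it (adjusted p = 0.05004).

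The 2′-5′-oligoadenylate synthetases make the messenger that activates RNase L. Of 6 tested members 3 fell, and their log2 fold changes lay between −1.31 and −0.49. Oas3 stood at 318, 344 and 433 in GFP-only cells and at 128, 138 and 175 in GFP–TTP cells, 2.48-fold lower (adjusted p = 1.05e-07). Oasl1 was 2.33-fold lower and Oas2 2.02-fold lower, whereas Oas1a had a log2 fold change of −0.62 ± 0.19 and was not called. These genes are similar in sequence, and reads were kept at up to 2 places, so that part of their footprints may be shared among them. Usp18, which removes ISG15 from proteins and dampens the interferon receptor, had 77.4, 67.2 and 90.4 against 28.7, 24.9 and 33.5, a 2.70-fold lower level (adjusted p = 1.11e-06).

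Proteins of nuclear bodies and of the Schlafen family were among the strongest changes. Sp100, a component of PML nuclear bodies, stood at 131, 132 and 161 against 38.6, 39.1 and 47.5, or 3.38-fold lower (adjusted p = 6.51e-14). Slfn5, at 117, 90.5 and 124 against 38.6, 29.9 and 40.9, was 3.03-fold lower (adjusted p = 4.85e-09). Sp110 was 1.77-fold lower, while Slfn9 and Slfn2, of the same family as Slfn5, had log2 fold changes of −0.03 and 0.05 and were not called. The other lowered members of the list were Xaf1, Phf11d, Ifi27l2a, Gbp3, Cmpk2, Lgals9, Dtx3l and Rtp4, with log2 fold changes between −1.23 and −0.83. Of these, Gbp3 and Rtp4 lost their call with the chromosome median taken off (adjusted p = 0.0643 and 0.0705).

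Other interferon genes were not called, and several well measured ones were close to 0. The membrane restriction factors Ifitm3, at 2478 and 2391 scaled reads, and Bst2, at 1266 and 1186, had log2 fold changes of −0.05 ± 0.15 and −0.09 ± 0.19. The Ifit proteins, Isg15 and Rsad2 had 0 of 4 members called, between −0.54 and −0.21. Of the 7 guanylate-binding proteins and immunity-related GTPases, which answer mainly to interferon gamma, 1 was called, Gbp3, and it was not called once the median of its chromosome was taken off (adjusted p = 0.0643). Of the transcription factors of the pathway, Irf9, Stat2 and Irf1 were not called either, with log2 fold changes of −0.62, −0.45 and −0.03. Ifnb1, the gene of interferon beta, was at 13.8 in GFP-only and 12.2 in GFP–TTP cells with a log2 fold change of −0.18 ± 0.24, and this depth could not show a moderate difference.

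**Figure D2:**
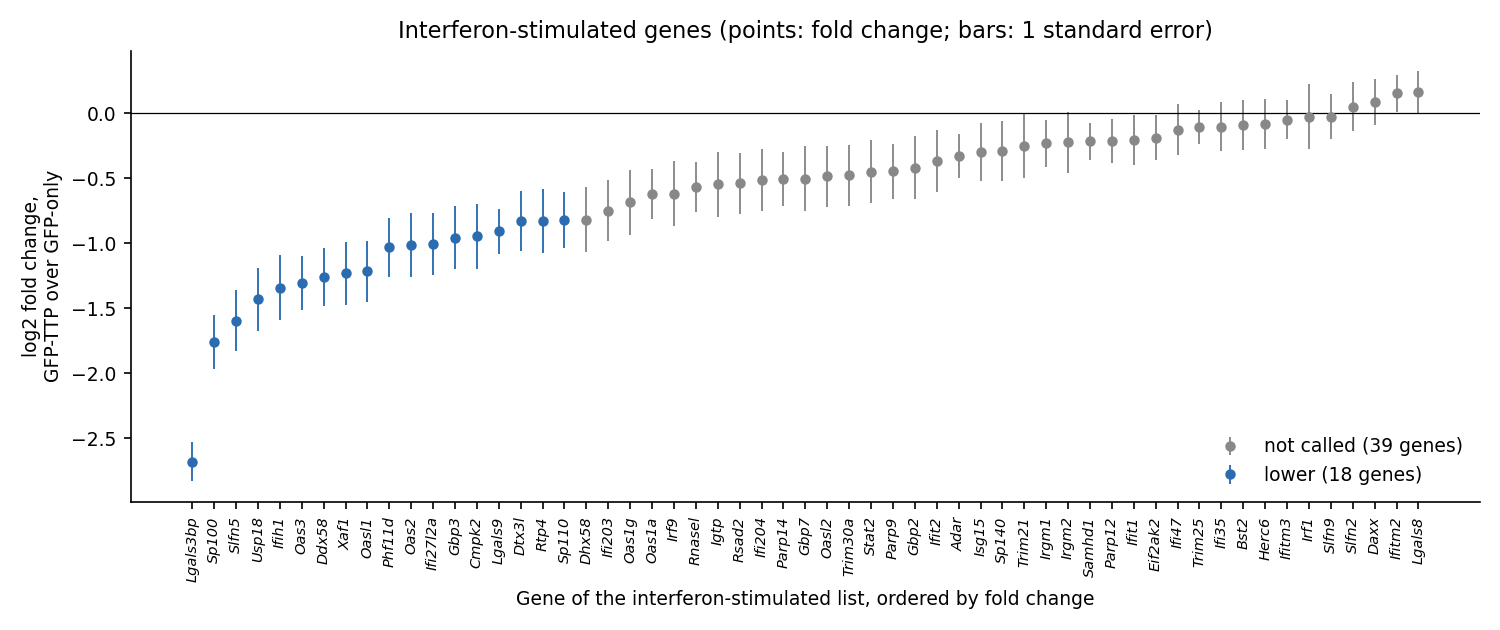
Log2 fold change of GFP–TTP over GFP-only (points) with 1 standard error (bars) for 57 of the 58 tested interferon-stimulated genes, ordered by fold change. The 18 called genes in blue run from Lgals3bp at −2.68 to Sp110 at −0.82, and 4 genes at the right end lie above 0.

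MHC class I molecules present peptides from the cytosol to T cells, and their genes are also raised by interferon. Of 23 listed genes 20 were tested, 5 fell and 0 rose (25% called against 2.09% over all genes), and the median log2 fold change was −0.31. H2-K1, a classical heavy chain, stood at 1722, 1736 and 1754 in the GFP-only libraries and at 1031, 1039 and 1049 in the GFP–TTP libraries. The level was 1.67-fold lower (adjusted p = 3.05e-05). H2-D1 had a log2 fold change of −0.70 ± 0.16 and the non-classical H2-T23 one of −1.06 ± 0.22. B2m, the light chain shared by all these molecules, stood at 9446, 10524 and 10877 against 6483, 7223 and 7465 and was 1.46-fold lower (adjusted p = 0.0184). Psmb8, a catalytic subunit of the immunoproteasome, was 1.77-fold lower (adjusted p = 1.48e-05). The general chaperones of the loading complex, Calr and Pdia3, had log2 fold changes of 0.15 and 0.14 and were not called, and Tap1 had one of −0.24. Heavy chain genes are near-identical over long stretches, so that footprints can be exchanged between H2-K1 and H2-D1. In the list of MHC class II presentation 1 of 10 genes was called, the protease Ctss (log2 fold change −0.59 ± 0.14), and the median was −0.22. Ctss lies on chromosome 3, and this call was lost when the chromosome median was taken off (−0.42, adjusted p = 0.151).

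Receptors and enzymes of the mature macrophage were a second group with calls in 1 direction. Among 39 tested surface receptors, lectins and scavenger receptors 6 fell and 0 rose (15.4% called against 2.09% over all genes), with a median of −0.18. Cd72, a C-type lectin-like receptor with an inhibitory cytoplasmic tail, stood at 482, 430 and 397 against 110, 98.2 and 90.8 and was 4.38-fold lower (adjusted p = 2.55e-26). The others were the high-affinity Fc receptor Fcgr1 (−0.95 ± 0.22), Pirb (−0.86 ± 0.25), 4632428N05Rik, which is Vsir in GENCODE (−0.78 ± 0.20), AF251705 (−0.65 ± 0.20) and the Fc receptor adaptor Fcer1g (−0.42 ± 0.12). Without the genes of chromosomes 3, 10 and 19, and with p adjusted again over the rest, this count was 3 of 37. Of the 6, only Fcgr1 and 4632428N05Rik lie on these chromosomes. Of the 9 tested macrophage markers 4 were lower, among them Fcgr1, Emr1 and Lyz2. Emr1, which encodes the F4/80 antigen, stood at 4954, 3356 and 3018 against 3096, 2097 and 1886. It fell by 0.68 ± 0.16 on the log2 scale (adjusted p = 0.00263), and the fitted values of the groups overlapped. Csf1r, Spi1, Cd68, Itgam and Cd14 were not called and had log2 fold changes between −0.17 and 0.11. The markers together summed to between 89856 and 106887 in the GFP-only libraries and to between 71566 and 83705 in the GFP–TTP libraries, mostly from Lyz2.

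Of 62 tested lysosomal genes 7 fell and 0 rose (11.3% called against 2.09% over all genes), the median was −0.20, and 52 were below 0. The largest changes were in Cpq, a plasma glutamate carboxypeptidase also found in lysosomes, and Smpdl3a, a phosphodiesterase related to acid sphingomyelinase. Cpq stood at 143, 112 and 107 against 31.5, 24.7 and 23.4 (4.54-fold lower, adjusted p = 8.57e-18). Smpdl3a stood at 272, 276 and 244 against 60.5, 61.4 and 54.2 (4.50-fold lower, adjusted p = 1.45e-28). Lyz1 was 2.58-fold lower and Lyz2 1.39-fold lower. These neighbouring lysozyme genes on chromosome 10 are close paralogs, so that the values of Lyz1, at 3423 in GFP-only cells, may hold footprints of Lyz2, at 64474. Sgsh, Ctss and Atp6v0c were also called. Many abundant members were not called, such as Ctsd (−0.19 ± 0.13) and Lamp1 (−0.21 ± 0.12). With chromosomes 3, 10 and 19 left out, 3 of 51 genes were called.

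Further single genes of immune function were lower. Ripk3, the kinase that drives necroptosis, stood at 137, 109 and 128 against 43.4, 34.7 and 40.6 and was 3.16-fold lower (adjusted p = 5.74e-10). Tgm2, a transglutaminase that crosslinks proteins, stood at 1233, 1342 and 1832 against 445, 484 and 661 and was 2.77-fold lower (adjusted p = 5.22e-10). Pycard, the inflammasome adaptor ASC, stood at 1278, 1003 and 1103 against 671, 527 and 579 and was 1.90-fold lower (adjusted p = 7.83e-10). It was the 1 call among 32 Toll-like receptor and inflammasome genes. Hpgds, the haematopoietic prostaglandin D synthase, was 1.97-fold lower (adjusted p = 1.50e-06), the 1 call among 13 genes of prostaglandin and leukotriene synthesis, whose median was −0.26. Ch25h, which makes 25-hydroxycholesterol, and Pltp, which moves phospholipids between lipoproteins, had log2 fold changes of −1.10 ± 0.25 and −1.03 ± 0.24. Also among the 12 largest decreases were the tubulin Tubb2a and Ulbp1, a ligand of the NKG2D receptor, with log2 fold changes of −1.53 and −1.51.

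**Figure D3:**
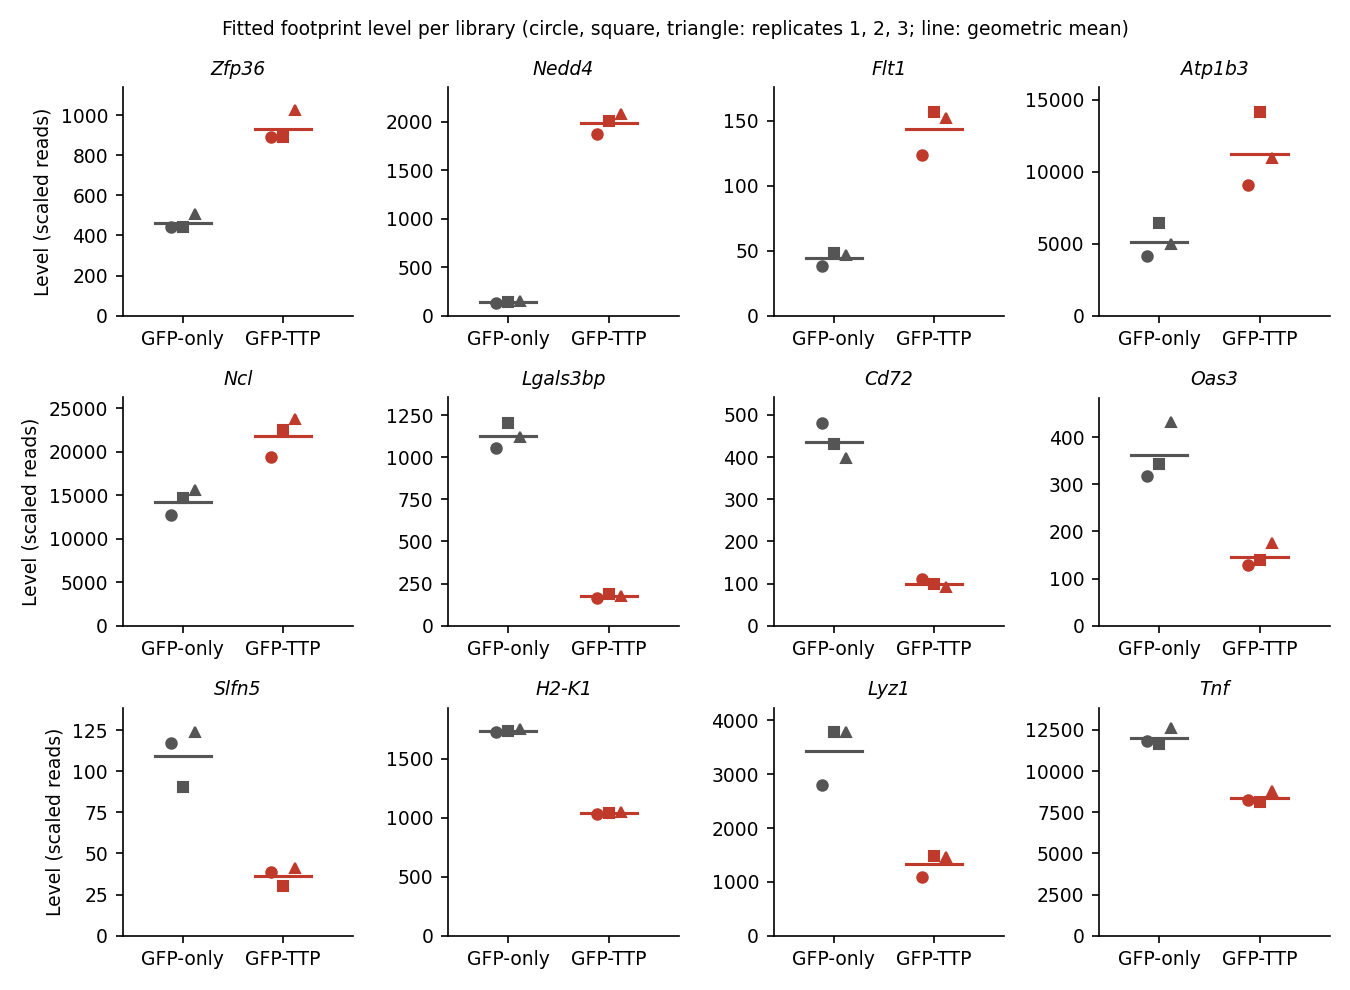
Fitted footprint level in scaled reads (vertical axes, from 0) in each GFP-only (grey) and GFP–TTP (red) library for 12 genes, with replicates 1 to 3 as circle, square and triangle and the geometric mean as a line. The order of the replicates is the same in both groups because the values are fitted, so a gap between the groups is no evidence on replicate spread.

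Cytokine mRNAs are the best known targets of TTP. Among 18 tested cytokines 0 were called by the Wald test and 5 had an unadjusted p under 0.05, with 15 below 0 and a median of −0.18. Tnf stood at 11831, 11661 and 12615 in the GFP-only libraries and at 8257, 8139 and 8804 in the GFP–TTP libraries. With a log2 fold change of −0.52 ± 0.25 the gene was not called (adjusted p = 0.388). Il1b and Il6 had log2 fold changes of 0.03 ± 0.24 and −0.02 ± 0.17. Of 14 chemokines 1 was called, Cxcl16 (−0.78 ± 0.22), which is held at the cell surface, and Cxcl2 and Ccl4 had log2 fold changes of −0.19 ± 0.25 and −0.05 ± 0.25. Standard errors of 0.25 are the largest in the table, and the model shrinks the fold changes of such uncertain genes more towards 0. The size of their changes is therefore uncertain, and a change like that of Tnf could not be told from 0. The dual-specificity phosphatases and other MAPK feedback genes had 0 of 15 called, 3 at an unadjusted p under 0.05, 14 below 0 and a median of −0.18. NF-κB subunits and inhibitors had 0 of 25 called, 0 at an unadjusted p under 0.05, and a median of −0.07.

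In the TTP family and other proteins that bind AU-rich elements, Zfp36 rose and Zfp36l2 fell, and 13 of 15 were not called. Zfp36l2, a paralog of TTP, stood at 855, 782 and 692 against 484, 442 and 392 and was 1.77-fold lower (adjusted p = 0.000171). Il10ra, the ligand-binding chain of the interleukin 10 receptor, was 1.80-fold lower (adjusted p = 0.0152). Among immediate-early genes Fosl1 was higher (0.80 ± 0.17) and Klf2 lower (−0.77 ± 0.22), and 21 of 23 were not called.

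The 3′UTRs of some of these genes hold the nonamer UUAUUUAUU, the preferred site of TTP. Sites are shown with 8 bases on each side and the nonamer in capitals, as RNA, from GENCODE vM21 on GRCm38. They lie at chr17:84184916-84184940 (Zfp36l2, minus strand), chr9:45254105-45254129 (Il10ra, minus strand, the last of 3), chr11:82962270-82962294 (Slfn5, plus strand), chr17:35199684-35199708 (Tnf, minus strand, 1 of 5 that overlap) and chr5:147638583-147638607 (Flt1, minus strand). The first 3 genes were called lower, Tnf was not called and Flt1 was called higher.
Zfp36l2: uauuuaacUUAUUUAUUaucuugug
Il10ra: uugcucacUUAUUUAUUgaggaagc
Slfn5: uacaugacUUAUUUAUUcagaaucu
Tnf: auuauuuaUUAUUUAUUuauuauuu
Flt1: uauaaugcUUAUUUAUUugaaacuu
Of 9789 tested genes with an annotated 3′UTR, 8999 had no nonamer, and their median log2 fold change was 0.00. The 614 genes with 1 nonamer had a median of −0.02, and the 176 genes with 2 or more had a median of −0.02 as well. Called lower were 1.36% of genes without the nonamer, 0.651% of those with 1 and 0.568% of those with 2 or more. The share called lower was thus no higher in genes with the nonamer than over all genes (1.29%). Called higher were 0.856% of genes without it and 0.380% of those with 1 or more, so that calls were fewer in both directions. Below 0 lay 49.4% of genes without it and 53.2% of those with 1 or more, at median standard errors of 0.184 and 0.195. Genes with the nonamer had longer 3′UTRs, with a median of 2361 bases for 1 nonamer against 1293 bases for none. Matches were counted in the longest annotated 3′UTR, which need not be the one used in these cells. Besides the genes above, Cd28 and Pax3 with 1 nonamer each were called lower, and Hells with 2 and Zfp36 with 1 were called higher. The vector held only the coding sequence of TTP, so that the site in Zfp36 is not part of the transgene.

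**Figure D4:**
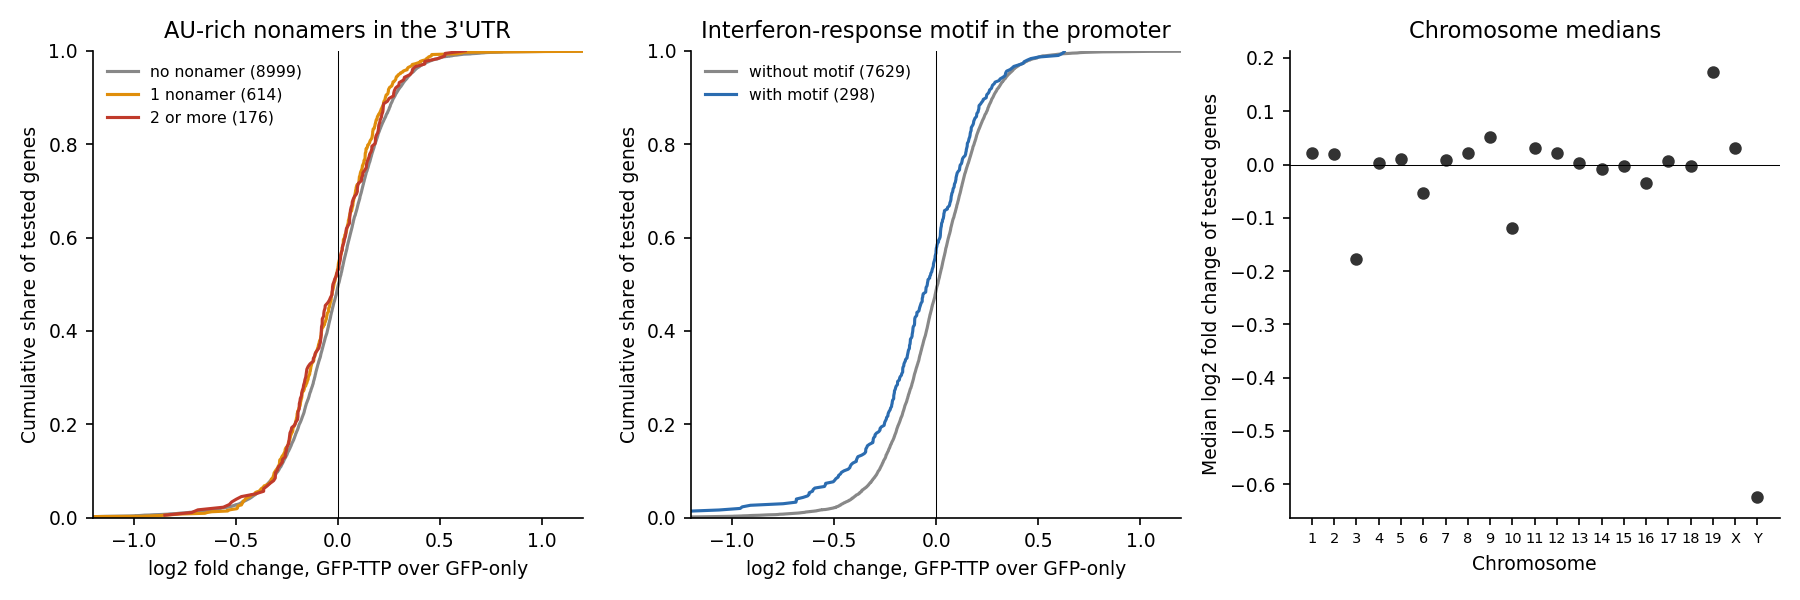
Left and middle, cumulative share of tested genes (vertical axes) by log2 fold change of GFP–TTP over GFP-only (horizontal axes) for 3′UTRs with no, 1 or at least 2 nonamers and for promoters with or without the interferon-response motif, with gene numbers in brackets. Right, median log2 fold change per chromosome. The 3′UTR curves nearly coincide, the curve of the 298 genes with the promoter motif lies to the left at low values, and chromosomes 3, 10, 19 and Y stand apart.

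Among the higher genes, Nedd4 had by far the largest change. It encodes a HECT ubiquitin ligase with WW domains and lies at chr9:72662346-72749852. Its footprints stood at 133, 143 and 148 in GFP-only and at 1867, 2005 and 2079 in GFP–TTP cells, so that the level was 14.0-fold higher (log2 fold change 3.81 ± 0.17, adjusted p = 9.25e-108). No other of the 22 tested HECT ligases was called, and their median was 0.01. Flt1, a receptor of VEGF, stood at 38, 48.2 and 46.8 against 124, 157 and 152 and was 3.26-fold higher (adjusted p = 1.89e-11). Atp1b3, a subunit of the sodium pump, stood at 4154, 6464 and 4983 against 9117, 14184 and 10935 and was 2.19-fold higher (adjusted p = 1.89e-11). Pcdh7, a protocadherin, Flnc, a filamin that crosslinks actin, Chchd10, a mitochondrial intermembrane protein, and Clstn1 had log2 fold changes of 1.51, 1.40, 1.38 and 1.05. Timp1, an inhibitor of matrix metalloproteinases, was low in both, at 7.85 and 24.5, with a log2 fold change of 1.64 ± 0.24. In the list of integrins and adhesion Vcl (0.65) and Ctnnd1 (0.79) were higher, and 30 of 32 were not called.

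In RNA processing and the translation machinery few members were called. The share called was 4.84% of splicing and RNA-binding factors, 6% of initiation and elongation factors and 3.80% of cytosolic ribosomal proteins. It was 3.39% of chromatin proteins and 2.09% over all genes. Of 62 splicing and RNA-binding factors 3 rose and 0 fell, namely Rbm25, Hnrnpa2b1 and Sf3a1, and the median of the list was 0.12 with 44 above 0. Of 50 initiation and elongation factors 2 rose, Eif3a, the largest subunit of eIF3, with 0.60 ± 0.13 and Eef1g with 0.56 ± 0.12, and the median was 0.12. Both genes lie on chromosome 19, and neither was called with the chromosome median taken off (0.42 and 0.39, adjusted p = 0.0551 and 0.0755). The third call in this list was the Y-linked Eif2s3y, which was lower. Of 79 cytosolic ribosomal proteins Rpl7, Rpl30 and Rpl15 were higher, with a median of 0.04 over the list. Ribosomal protein genes have many processed pseudogenes, and with reads kept at up to 2 places these 3 values are uncertain. Chromatin proteins had 2 calls among 59, Atrx and Kdm1a, both higher. Replication and mitosis genes had 0 of 59 called (8 at an unadjusted p under 0.05) with a median of 0.11, and cytosolic chaperones 0 of 23 (4) with a median of 0.18.

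**Figure D5:**
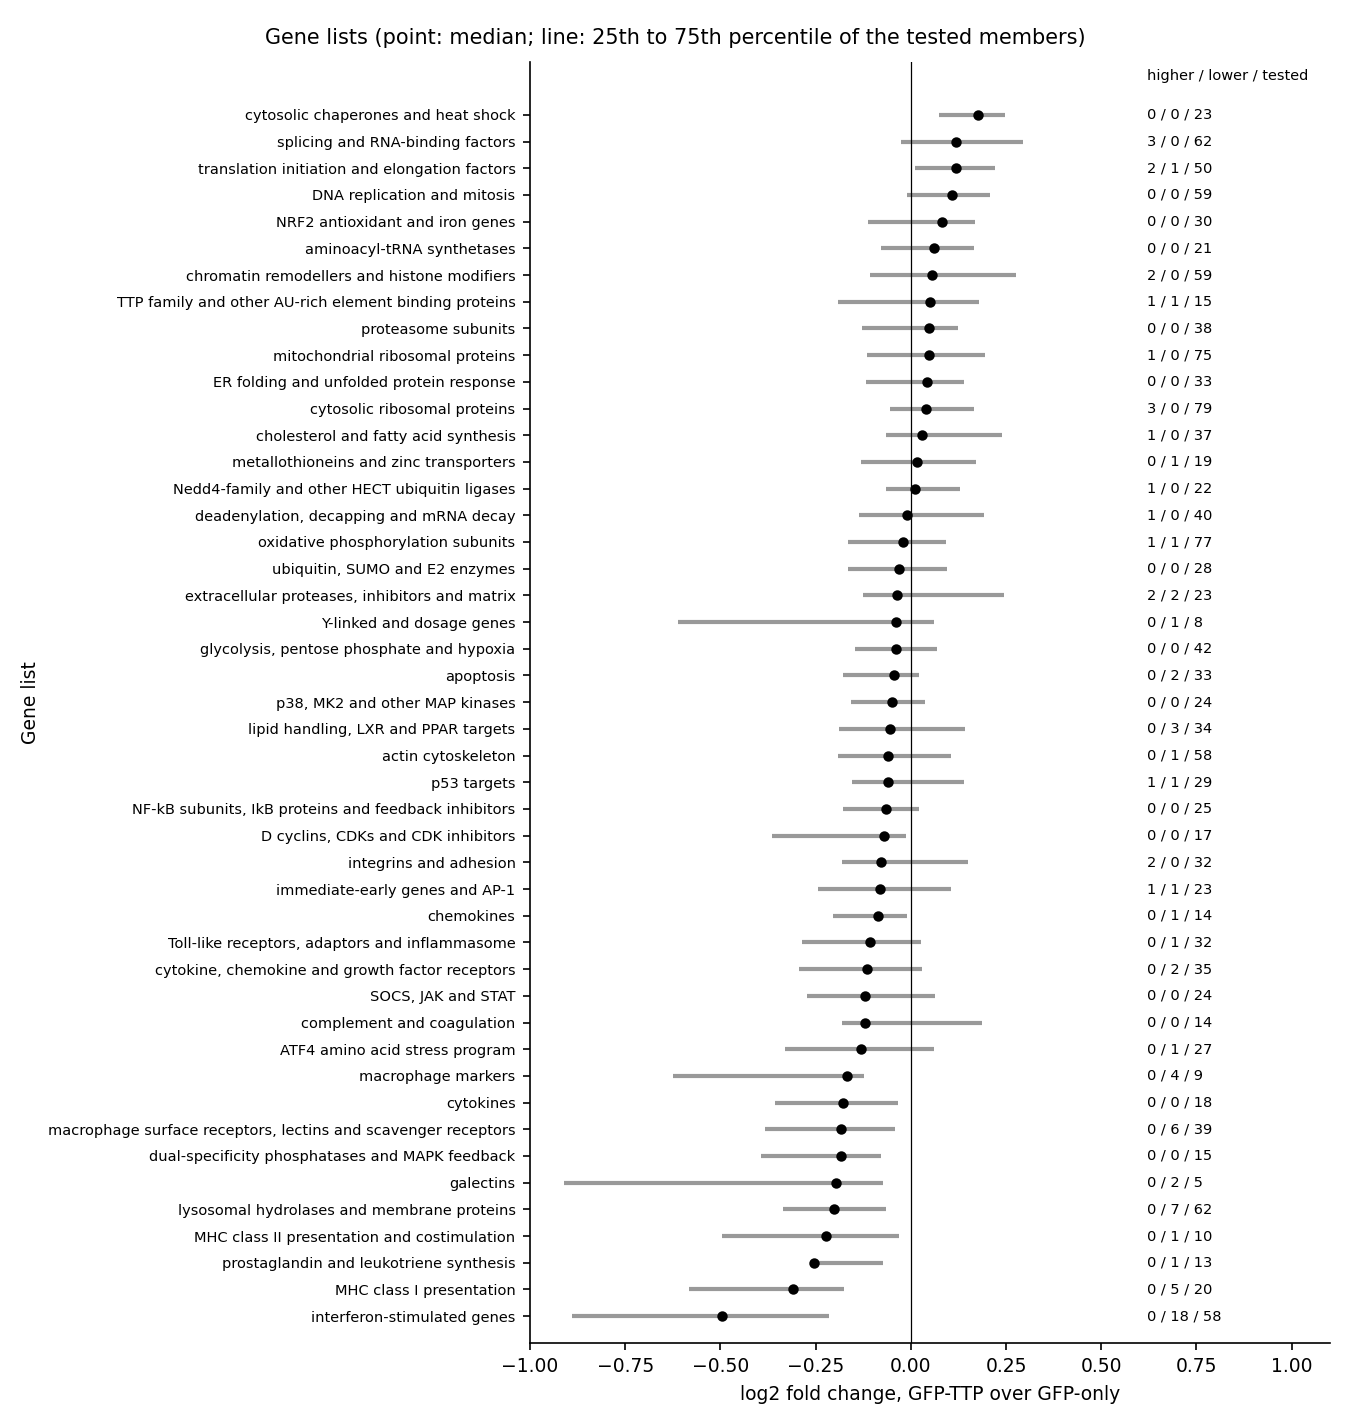
Median (points) and 25th to 75th percentile (lines) of the log2 fold change of GFP–TTP over GFP-only for the tested members of 46 gene lists, with the numbers called higher, called lower and tested at the right. The interferon list lies lowest at −0.50, followed by MHC class I at −0.31, and cytosolic chaperones lie highest at 0.18.

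Over the 46 lists with at least 5 tested genes, 10 had a median below −0.15 and 4 a median above 0.10, and 15 had no called gene. The other 31 held 80 of the 208 called genes, 58 lower and 22 higher. Glycolysis (0 of 42 called, median −0.04), proteasome subunits (0 of 38, 0.05), oxidative phosphorylation subunits (2 of 77, −0.02), unfolded protein response genes (0 of 33, 0.04) and mRNA decay factors (1 of 40, −0.01) lay close to the median of all genes. The shares called of oxidative phosphorylation subunits (2.60%) and mRNA decay factors (2.50%) were near that over all genes (2.09%).

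Fold changes also differed by chromosome. On chromosome 19, 23 genes were called higher and 1 lower of 357, with a median of 0.17. Medians of its windows of 20 Mb lay between 0.15 and 0.20, so that the shift ran along the whole chromosome. On chromosome 3, 15 genes were called lower and 0 higher of 467, with a median of −0.18 and all windows below 0. On chromosome 10, 16 were lower and 2 higher of 476, with a median of −0.12 that reached −0.24 in the last window. The other autosomes had medians between −0.05 and 0.05. The 4 tested Y-linked genes were all below 0, and Eif2s3y was called, at 101, 120 and 147 against 43.0, 51.1 and 62.8 (2.35-fold lower, adjusted p = 1.10e-05). Thus 25 of the 80 higher and 32 of the 128 lower genes lay on chromosomes 3, 10 and 19. Fosl1, Eif3a, Eef1g, Fads1 and Ndufs8 are on chromosome 19, and Fcgr1, Ctss, Gbp3 and Casp6 on chromosome 3. Lyz1, Lyz2, Smpdl3a and Ulbp1 are on chromosome 10. After the chromosome median was taken off, 165 genes were called, 154 of them among the 208. Besides Ctss, Gbp3, Eif3a and Eef1g, the genes Rtp4, Hells, Lyz2, 4632428N05Rik, Sf3a1, Kdm1a, Fads1, Casp6 and Eif2s3y lost their call. Their adjusted p lay between 0.0580 (Kdm1a) and 0.363 (Hells). What the chromosome shifts come from was not tested.

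Levels in the GFP–TTP-AA libraries, fitted in the same model, are given beside these values without a test, as they share the GFP-only libraries as reference. In the order GFP-only, GFP–TTP, GFP–TTP-AA, Lgals3bp was at 1123, 175 and 1721, Oas3 at 362, 146 and 367, Sp100 at 141, 41.6 and 168, H2-K1 at 1737, 1040 and 1948, and Cd72 at 435, 99.3 and 496. For these 5 genes GFP–TTP cells had the lowest of the 3 levels. Zfp36l2 was at 773, 438 and 492, Klf2 at 150, 88.3 and 87.8, Tnf at 12028, 8395 and 7637 and Lyz1 at 3423, 1329 and 941, and here both TTP lines lay below GFP-only cells. Nedd4 was at 141, 1981 and 484, with the highest level in GFP–TTP cells. Eif2s3y was at 121, 51.7 and 321, and so its order was that of Lgals3bp.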

How the data were processed

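RiboSeq libraries of TTP-deficient immortalized macrophages were grouped by the labels. According to the submitters' processing notes and the methods, the authors trimmed reads, mapped them to GRCm38/mm10 with TopHat2 (2.0.12 in the notes, another version in the methods) with up to 2 alignments per read, counted them with HTSeq and fitted them with DESeq2 (1.6.3) with library date and condition. The deposited signal is the fitted value per gene and library. The deposited log2 standard error of GFP–TTP against GFP was also used. The fold changes, statistics and p-values of the authors' comparison tables were not used.

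Size factors were recovered from the 200 lowest genes. The log2 fold change was the mean over replicate numbers of the log2 ratio, divided by the standard error for a two-sided Wald test (Python 3, scipy) and adjusted by the Benjamini-Hochberg method over all genes whose fitted mean reached 10. The test was run on simulated fold changes with normal noise at these standard errors. This checks the computation, not the standard errors, the shrinkage or the reference distribution. Named were Zfp36, the 12 largest increases and decreases with a mean of at least 50, up to 6 called members or the 2 highest of each of 47 lists, and macrophage markers, besides genes named after their values were seen. A few genes that this rule names are not reported here. Members, lists and genes were chosen with earlier results of these data known. Symbols are those of the table, with positions from GENCODE vM21 and promoters from RefSeq. Alternatives covered scaling, filter, reference distribution, chromosome, pseudocount and 3′UTR motif.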

Additional observations from a re-analysis of the deposited data

How the results depend on the processing

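No paired analysis was possible because the deposited values are fitted with a replicate term and leave no spread between replicates, and for the same reason no replicate could be left out. Beside 208 called genes (80 higher, 128 lower), scaling by the median of ratios or no filter called 208, a fitted mean of at least 50 called 173, the chromosome median taken off 165 and a pseudocount of 10 called 144. A t distribution with 4 degrees of freedom called 0 genes, 0 higher and 0 lower, and 0 in the interferon, MHC class I, surface receptor and lysosomal lists. As not even Nedd4 was called, the 0 of a list says nothing particular of that list. With chromosomes 3, 10 and 19 left out, an alternative chosen after seeing the data, 48 genes were called higher, and 3 receptors and 3 lysosomal genes lower. Of 871 values of the 129 named genes under alternatives, 115 lost their call (82 of them under the t distribution), 0 reversed and 0 gained one. With UAUUUAU in place of the nonamer, the median of 2987 genes with a match was −0.01 against −0.02. Standard errors of up to 0.25 limit what could be called. The cause of these differences was not tested.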

Other observations

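Proteins that make ribosomes in the nucleolus were described after their values had been seen in the table of called genes. Of 58 listed genes all 58 were tested, and 5 were called higher and 0 lower (8.62% called against 2.09% over all genes). Above 0 were 53, and the median log2 fold change was 0.21 against 0.00 over all genes. Ncl, which encodes nucleolin, stood at 12669, 14724 and 15541 in GFP-only and at 19345, 22482 and 23730 in GFP–TTP cells and was 1.53-fold higher (adjusted p = 6.62e-05). Pdcd11, Nolc1, Rrp12 and Nol12 had log2 fold changes between 0.51 and 0.73. Pdcd11, Nolc1 and Rrp12 lie on chromosome 19, whose median was 0.17, and Nolc1 and Rrp12 were not called with it taken off (adjusted p = 0.237 and 0.173).

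Outside the interferon list, Ifi27 and Epsti1, which are also induced by interferon and were named after their values had been seen, had log2 fold changes of −1.12 ± 0.15 and −0.93 ± 0.22. Of 37 genes of cholesterol and fatty acid synthesis 1 was called, the desaturase Fads1 (0.67 ± 0.16), which lies on chromosome 19 and was not called with its median taken off (adjusted p = 0.0947), and Fasn had a log2 fold change of 0.39 ± 0.12 (adjusted p = 0.0528).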
